A study of Mus musculus with 24 samples.

Results

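The genes of the intercalated disc and of the adhesions between heart muscle cells and their surroundings were followed in hearts that lack Xinβ, a disc protein encoded by Xirp2. The group holds 39 genes, chosen by name as components of the disc, its junctions and integrin adhesions. All 39 were found by symbol in both deposited tables, which list 15667 genes for uninjected and 15327 for injected hearts. RNA was sequenced from 24 hearts at postnatal day 7.5, in 6 groups of 4. Xinβ knockout (KO) and wild type (WT) hearts without injection were read in 50 bp single reads. In the other cohort, KO and WT pups received adeno-associated virus serotype 9 (AAV9) under the skin on postnatal day 1, which gave the groups WT/GFP, KO/GFP, WT/YAP and KO/YAP, read in 150 bp pairs. The virus carried either GFP or a human YAP with the S127A change and a Flag tag, each under the chicken cardiac troponin T promoter, so the transgenes were meant for cardiomyocytes. The KO is carried by the whole animal from the germ line: a LacZ and neomycin resistance cassette took the place of portions of exon 6, intron 6 and exon 7. The line came from R1 embryonic stem cells and was bred onto C57BL6. Controls were littermates, and the methods state equal numbers of males and females in each group. The labels give the tissue as the heart apex, while the methods name the ventricles. In such tissue, fewer cells of a type and less RNA per cell cannot be told apart.

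Intercalated discs join cardiomyocytes end to end. Cadherins and catenins form the adherens junctions that take up the pull of actin filaments, desmosomes anchor the intermediate filaments, and connexin gap junctions carry the electrical signal. Integrins with talin, vinculin and their partners bind the cell to the surrounding matrix, and both kinds of contact feed into Hippo-YAP signaling. YAP is a coactivator that acts through TEAD factors on DNA, and the S127A change takes away a site at which the Hippo kinases restrain it.

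RefSeq promoters, here the 250 bases ahead of the start on GRCm38.p6, were at hand for 21 of the 39 genes. Sequences are shown for Xirp2, the deleted gene, and for Myzap and Vasp, which differed in KO/GFP hearts in one direction and in KO/YAP hearts in the other. Capitals mark the letters of a MEF2-type run, CTA and TAG with any 4 bases between them, where MEF2 is a muscle transcription factor. The TEAD-type letters GGAATG were searched as well, and both were searched on both strands and do not overlap in the promoters shown.
Xirp2 promoter (chr2:67445752-67446001, plus strand): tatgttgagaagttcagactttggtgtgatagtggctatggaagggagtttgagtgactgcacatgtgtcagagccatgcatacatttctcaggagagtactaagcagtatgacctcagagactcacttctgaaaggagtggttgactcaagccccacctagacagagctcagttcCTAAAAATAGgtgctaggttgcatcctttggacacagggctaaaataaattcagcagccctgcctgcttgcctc
Myzap promoter (chr9:71592361-71592610, minus strand): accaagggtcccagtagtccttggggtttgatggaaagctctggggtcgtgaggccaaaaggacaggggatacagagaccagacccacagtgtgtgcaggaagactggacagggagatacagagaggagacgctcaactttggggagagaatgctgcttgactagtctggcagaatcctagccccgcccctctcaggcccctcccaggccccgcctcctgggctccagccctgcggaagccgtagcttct
Vasp promoter (chr7:19271855-19272104, minus strand): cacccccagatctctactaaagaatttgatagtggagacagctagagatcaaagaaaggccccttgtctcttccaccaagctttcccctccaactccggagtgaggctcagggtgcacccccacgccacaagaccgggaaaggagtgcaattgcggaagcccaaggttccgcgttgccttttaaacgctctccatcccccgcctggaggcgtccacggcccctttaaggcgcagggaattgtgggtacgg
The MEF2-type run in Xirp2 lay 74 bases ahead of the start. The 21 genes have 30 promoters in the table, since some have more than 1. These letters occurred in 2 of the 30, of Xirp2 and Tln1, and in 3.2% of 32851 mouse promoters of the same length. The TEAD-type letters occurred in 3 of the 30 (of Ctnna3, Itgb1 and Vcl) and in 12.6% of all, and neither Myzap nor Vasp held either run. A match of letters is not a binding site. Tmem65 and Xirp1 had no promoter entry.

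Uninjected libraries held between 20490875 and 31154155 reads on listed genes and injected libraries between 15015038 and 19444404. Values are read counts relative to library size (CPM) on the scale the authors deposited, and the least abundant of the 39 genes in WT hearts, Gja5, still had 354 to 598 reads per uninjected library. One library stood apart in the balance of long and short genes, a measure chosen after the data were seen. In KO uninjected replicate 1, genes with 8000 bp or more of exon lay 0.825 lower on the log2 scale relative to genes under 2000 bp, while the other 7 uninjected libraries lay between -0.073 and 0.11. In the injected hearts, KO/GFP replicate 2 was at -0.347, WT/GFP replicate 1 at -0.212 and WT/YAP replicate 4 at -0.143. The measure bears on these genes because they are long. Their median exon length was 7400 bp, and 46.2% of them reached 8000 bp, against 15.6% of all tested uninjected genes. The 17 long ones other than Xirp2 had a median deviation of -0.60 in KO uninjected replicate 1, whereas in the other uninjected hearts it lay between -0.055 and 0.20. It was -0.31 in WT/GFP replicate 1 and -0.24 in KO/GFP replicate 2. Calls that rest on KO uninjected replicate 1 or KO/GFP replicate 2 are given with and without them. Among genes not called with or without the library, leaving out KO uninjected replicate 1 turned the sign of the fold change of Ctnna3, Enah, Gja5, Itgb1, Pkp2, Pxn and Tln2. Leaving out KO/GFP replicate 2 turned it for Dsc2, Itgb1 and Vcl in KO/GFP against WT/GFP and for Cdh2, Dsc2 and Itgb1bp2 in KO/YAP against KO/GFP hearts.

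**Figure D1:**
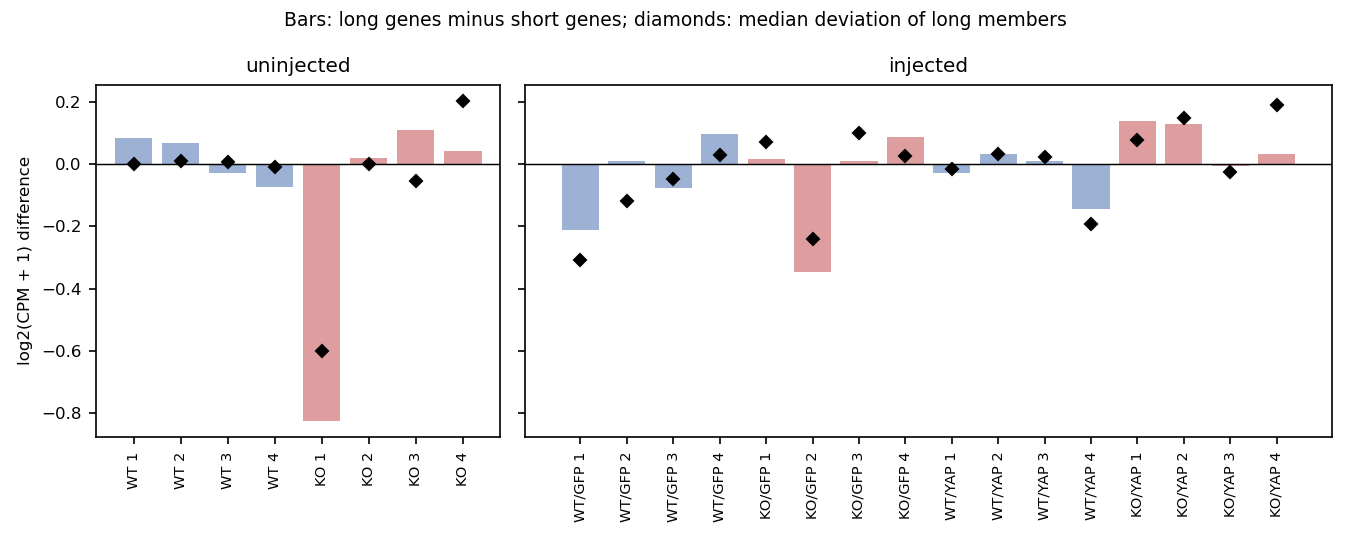
Bars give, for each library, the median log2(CPM + 1) deviation of long genes (8000 bp or more) minus that of short genes (under 2000 bp), and diamonds the median deviation of the 17 long disc and adhesion genes. The bar of KO uninjected replicate 1 reaches -0.825, and KO/GFP replicate 2 has the lowest bar among injected hearts at -0.347.

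Cardiomyocyte markers, 7 of 7 listed, summed to 64035 to 82237 CPM in KO and 58492 to 65615 CPM in WT uninjected hearts, and to 57164 to 67537 CPM in KO/GFP, 49794 to 64022 CPM in WT/GFP and 55342 to 59817 CPM in KO/YAP hearts. Of the 7, 1 was called, Tnnt2, cardiac troponin T, which rose in KO hearts without virus (log2 fold change 0.60, adjusted p = 0.045) and with GFP (log2 fold change 0.65, adjusted p = 0.0013) and was lower with YAP (log2 fold change -0.62, adjusted p = 0.0017). Markers of other cells also moved with the groups, and not all in the same way. Erythroid markers (6 listed) summed to 1209.9 to 3104 CPM in KO/GFP, below the 3385 to 8411 CPM of WT/GFP hearts. They stayed low in KO/YAP hearts, at 1862 to 2056 CPM, while their sums overlapped between uninjected KO and WT hearts. The summed level of 6 fibroblast markers was 2042 to 3012 CPM in KO and 4215 to 4439 CPM in WT uninjected hearts. It was 1908 to 2951 CPM in KO/GFP, 3875 to 4532 CPM in WT/GFP and 4108 to 5060.5 CPM in KO/YAP hearts. Of the 6, limma called 3 lower in uninjected KO hearts and 4 lower in KO/GFP hearts, and 4 higher with YAP in KO hearts. Of all genes, 3.46% and 7.22% were called lower and 7.85% higher there. Those called by edgeR were the collagens Col1a1, Col1a2 and Col3a1, with Dcn added in the injected comparisons. In KO/GFP against WT/GFP hearts the 6 log2 fold changes ran from -0.99 to -0.028. The 6 macrophage markers summed to 26.4 to 45.3 CPM in KO and 68.3 to 85.4 CPM in WT uninjected hearts, to 26.7 to 72.8 in KO/GFP, 82.5 to 123.7 in WT/GFP and 84.0 to 106 in KO/YAP hearts. Endothelial markers, also 6, summed to 1046 to 1347 CPM in KO against 1461 to 1604 CPM in WT uninjected hearts, to 1175 to 1230.3 in KO/GFP against 1349.9 to 1503 in WT/GFP, and to 1371 to 1411 in KO/YAP hearts. Not all 6 followed their sum. In uninjected KO hearts limma called 1 lower, and 2 had positive log2 fold changes (up to 0.19). In KO/GFP against WT/GFP hearts 3 were called lower and 1 was positive (0.34). With YAP in KO hearts 2 were called higher and 1 lower, and the lowest log2 fold change was -0.45. No listed marker of these types was at 0 in all libraries of a group. The part that cell makeup has in the values of the disc and adhesion genes was not tested.

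Levels were first compared between genes in WT hearts. Per kb of exon, Itgb1, the integrin β1 chain, led with 141 ± 7.36 CPM per kb (SD, n = 4) in uninjected WT hearts, and Ctnna1, which links cadherins to actin, followed at 136 ± 3.12. The difference between these neighbours was within their spread. Next came Itgb1bp2 (melusin), Dsp and Ctnnb1 at 92.8 ± 7.55, 90.02 ± 7.03 and 82.3 ± 7.62 CPM per kb, which overlapped in their SDs, and then Gja1 at 60.3 ± 7.50 and Myzap at 52.9 ± 1.62. Xirp1 was at 42.4 ± 2.52 CPM per kb and Xirp2 at 11.6 ± 2.23, so on this scale the level of the deleted gene was below that of its paralog. Desmosomal Dsp exceeded Jup (34.4 ± 3.04), Pkp2 (31.0 ± 1.44), Dsg2 (12.9 ± 0.845) and Dsc2 (11.5 ± 0.906). Of the connexins, Gja1 exceeded Gjc1 (11.5 ± 0.484) and Gja5 (3.03 ± 0.581). The lowest were Gja5 and Ank3, a large ankyrin at 1.503 ± 0.222 CPM per kb, for which the union of annotated exons (34838 bp) was used as the length. In WT/GFP hearts the same 2 genes came first and Ank3 last, and Ctnnb1 moved to the third place at 82.4 ± 30.5 CPM per kb.

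**Figure D2:**
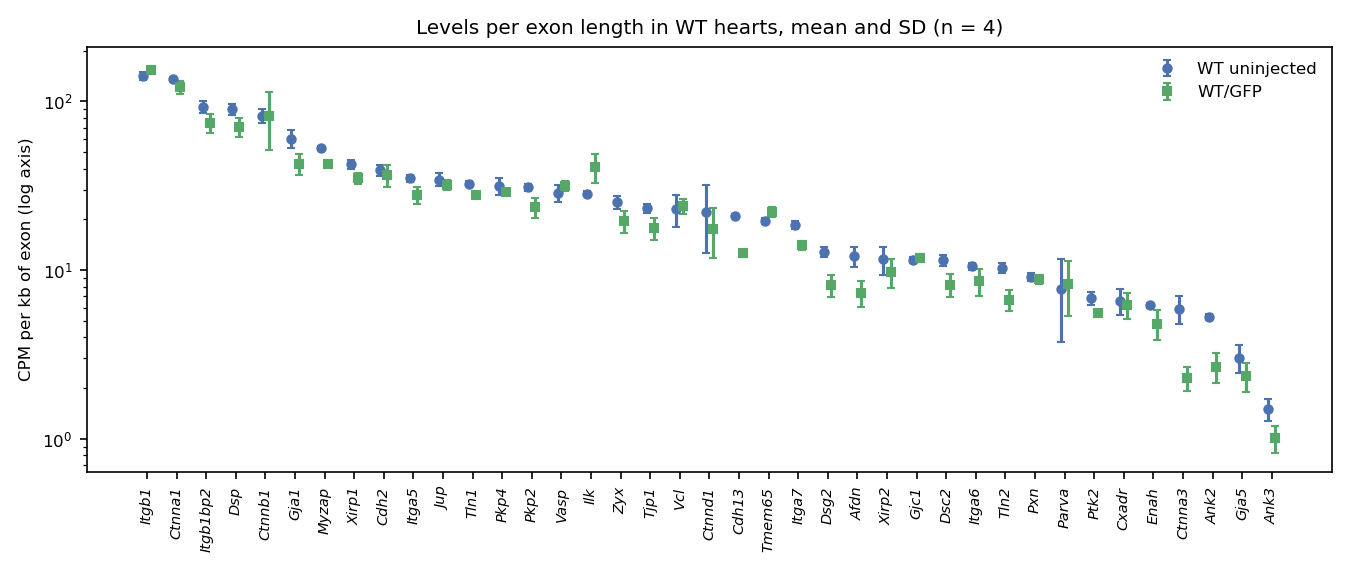
Mean level with SD (n = 4) of each of the 39 genes in CPM per kb of exon on a log axis, for WT uninjected (circles) and WT/GFP hearts (squares), ordered by the uninjected level. Itgb1 and Ctnna1 lead and Ank3 is lowest in both groups.

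The next question was which disc genes differed past the threshold between uninjected KO and WT hearts. Apart from Xirp2 itself, Myzap rose and Gja1, the main ventricular connexin, fell, and the other 36 genes did not pass the test. With Xirp2 that made 3 of 39 called at an adjusted p-value under 0.05 (limma, Benjamini-Hochberg over all 15598 tested genes), against 6.69% of all tested genes. One was higher, where 3.23% of all genes were, and 2 were lower, where 3.46% were. Without Xirp2, 2 of 38 were called. The values of the 2 genotypes did not overlap for 8 of the 39, 4 higher and 4 lower, against 16.4% of all genes. Xirp2, the deleted gene, was among those lower. Without Xirp2 the median log2 fold change was -0.052, and 0.0011 over all tested genes. Leaving out KO uninjected replicate 1 brought the count to 5, as Dsg2 and Dsp were then called as higher, and the share of all genes called to 11.3%.

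The same question in injected hearts, KO/GFP against WT/GFP, gave higher Myzap, Dsg2 and Pkp2 and lower Vasp and Tmem65. Including Xirp2, 6 of 39 were called, against 13.7% of all 14597 tested genes. Of these 3 were higher (6.43% of all genes) and 3 lower (7.22%). Without Xirp2, 5 of 38 were called. In 6 of the 39 the groups did not overlap, 2 higher and 4 lower, where 15.3% of all genes did not overlap. Xirp2 was again among those lower. The median log2 fold change without Xirp2 was 0.038, against -0.0092 over all genes. Of the 39 genes, Xirp2 and Myzap passed in both cohorts, where 611 of the 13734 genes tested in both tables passed. The cohorts share no library, and 28 of the 38 genes other than Xirp2 (73.7%) had the same sign in both, against 72.3% of 13734 genes tested in both tables. Without KO/GFP replicate 1 the count was 3, where 8.65% of all genes were called. Without KO/GFP replicate 2 it was 7, with Dsp added, against 18.9% of all genes, and without WT/GFP replicate 1 it was 4, against 9.87%. With only the 2 groups compared in the fit 2 were called, Xirp2 and Myzap, against 6.37% of all genes.

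YAP S127A in KO hearts was compared with GFP in KO hearts. Myzap and Gjc1 were lower and Tln1, Ptk2, Itga7, Vasp and Tmem65 higher with YAP. These 7 of 39 stood against 14.8% of all genes. Of them 5 were higher (7.85% of all genes) and 2 lower (6.92%). The groups did not overlap for 7 genes, 6 higher and 1 lower, against 17.5% of all genes. The median log2 fold change was 0.13 without Xirp2 and 0.010 over all genes. The count was 4 without KO/GFP replicate 1, KO/YAP replicate 1 or KO/YAP replicate 2, where 10.1%, 10.2% and 10.6% of all genes were called. With only the 2 groups compared in the fit 2 were called, Myzap and Tmem65, against 8.28% of all genes. The count was 6, against 17.1% of all genes, without KO/GFP replicate 2, when Gjc1, Ptk2 and Itga7 no longer passed and Dsg2 and Pkp2 were called as lower.

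In WT hearts YAP S127A against GFP gave 0 calls among the 39 in limma, with 3 (Xirp2, Parva and Itga5) at an unadjusted p under 0.05, and edgeR and DESeq2 called 0 with 1 each at that unadjusted level. Over all genes limma called 0%, edgeR called 0 genes and DESeq2 called 11, and 1011 had an unadjusted p under 0.05 in limma. KO/YAP hearts differed from WT/GFP hearts in 1 of the 39, Xirp2, where 0.0206% of all genes were called. From WT/YAP hearts they also differed in Xirp2 alone in limma, against 0.0411% of all genes, and in DESeq2 also in Itga7. The YAP effect differed between KO and WT hearts (interaction term) for 3 of 39, Tln1, Myzap and Tmem65, against 7.56% of all genes. This count was 5 without KO/GFP replicate 2, where 10.1% of all genes were called. It was 2 in 11 of the 16 fits that left out 1 library, where 4.32% to 6.17% of all genes were called, and Tln1 was not called in any of these 11.

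**Figure D3:**
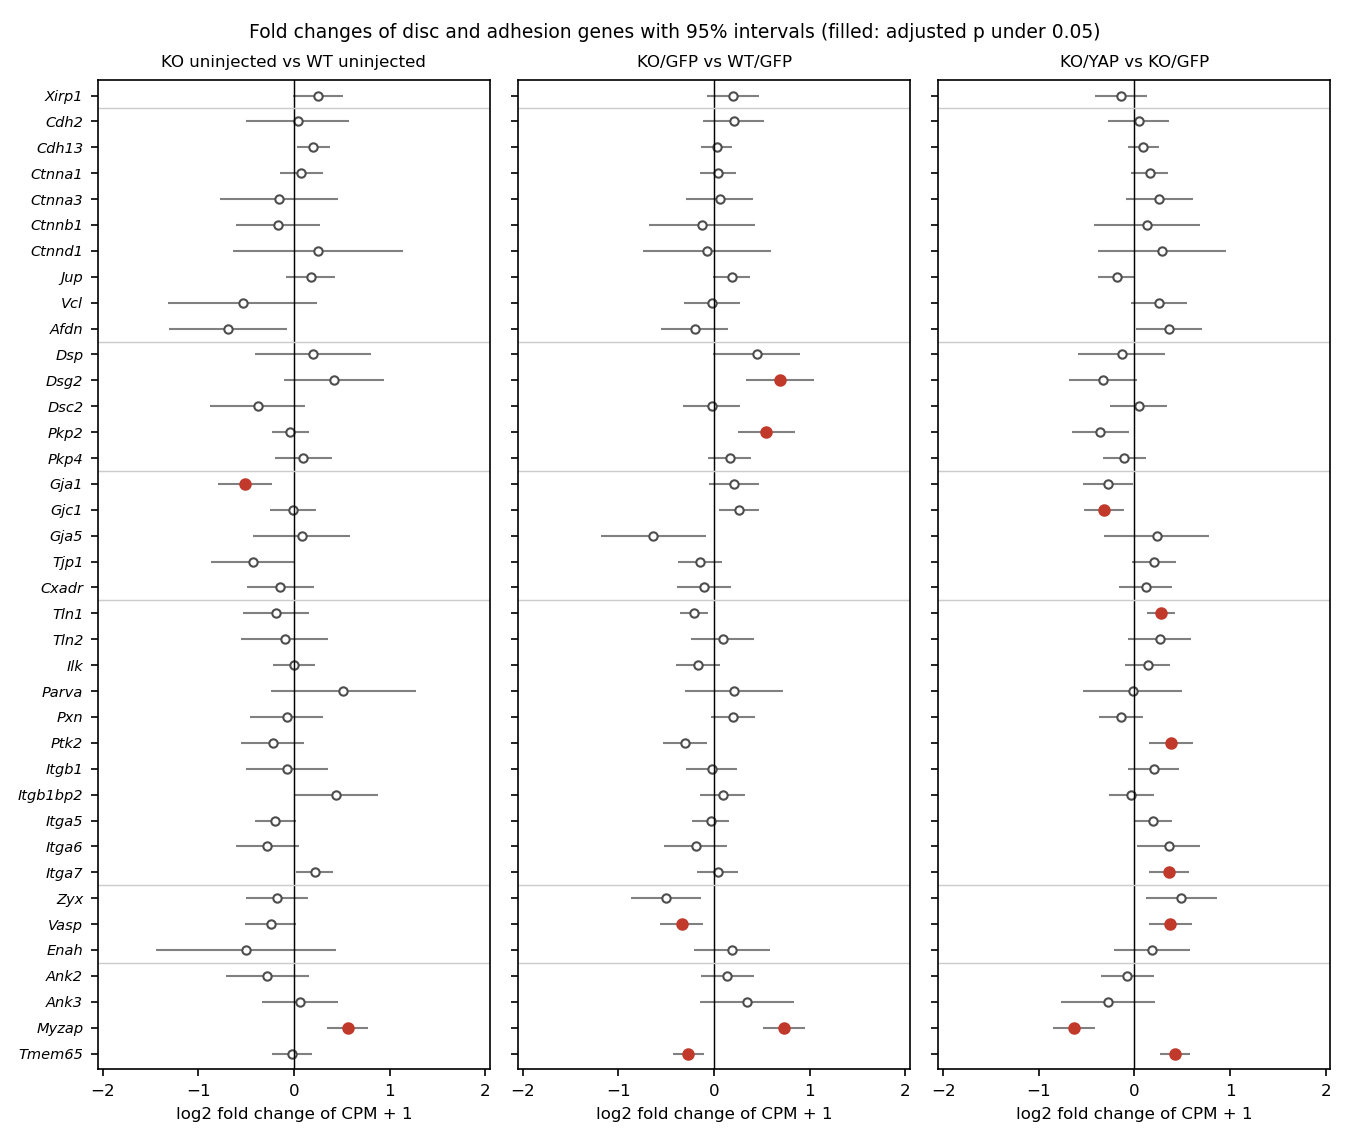
Log2 fold changes of CPM + 1 with 95% intervals for 38 genes (Xirp2 is off the scale) in KO against WT uninjected hearts, KO/GFP against WT/GFP and KO/YAP against KO/GFP hearts. Filled points have an adjusted p under 0.05, which are 2, 5 and 7 genes from left to right, and Myzap lies to the right in the first 2 panels and to the left in the third.

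**Figure D4:**
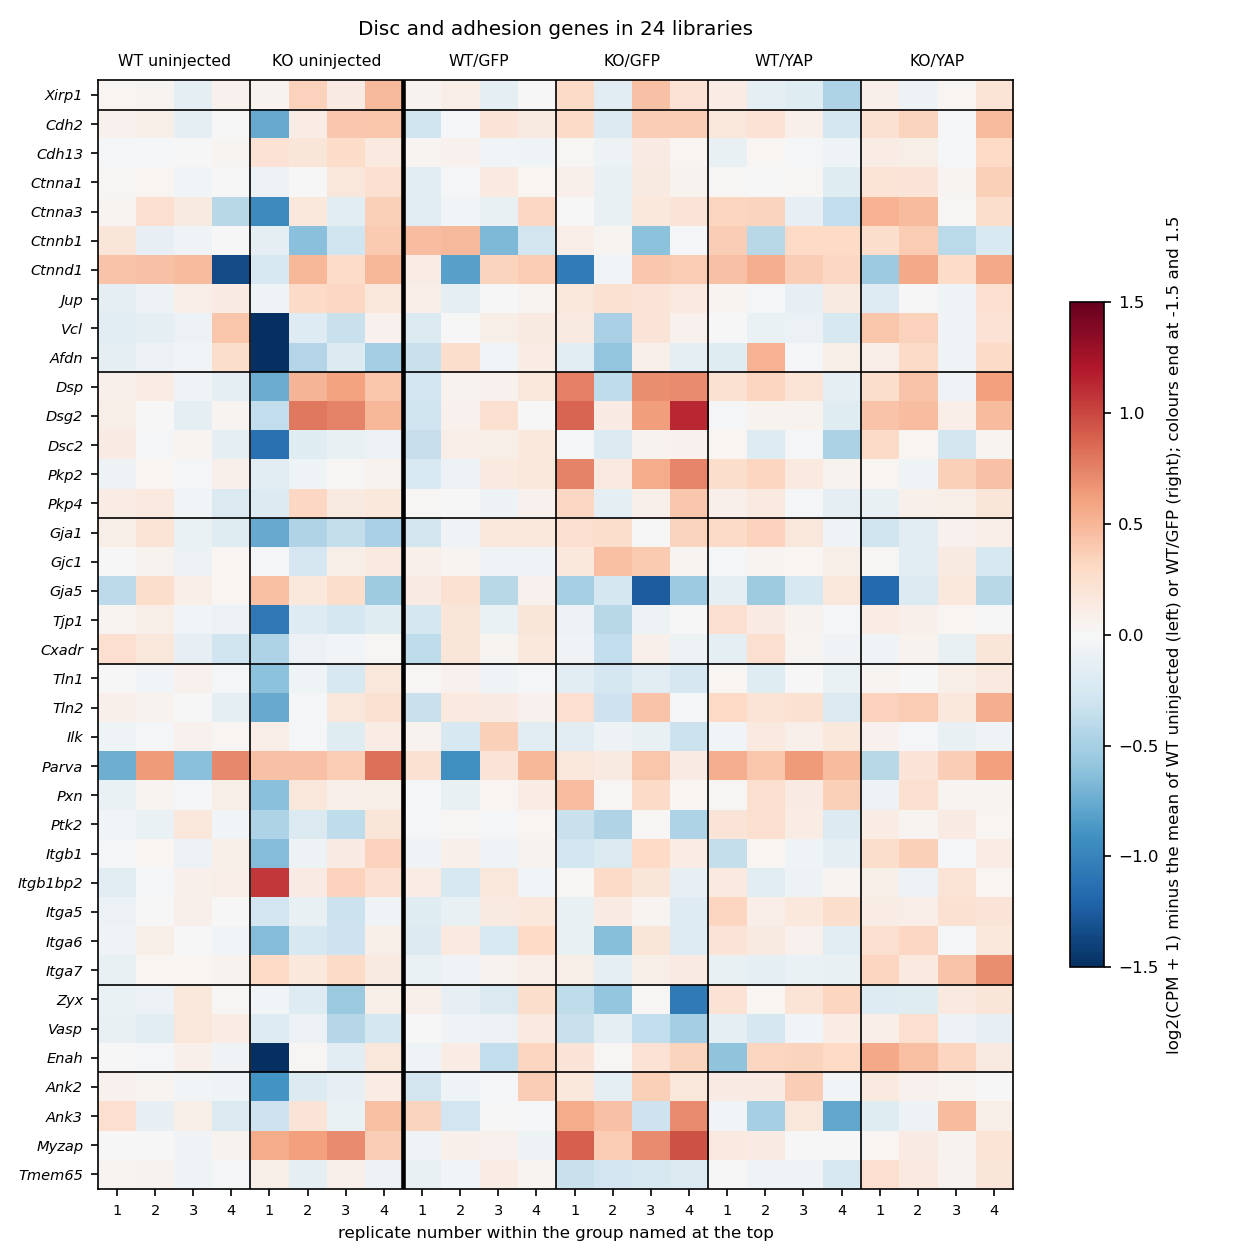
Each cell is the log2(CPM + 1) of a gene in a library minus the mean of WT uninjected hearts (left block) or WT/GFP hearts (right block), with colours ending at -1.5 and 1.5. KO uninjected replicate 1 is low across many rows, and the Myzap row is high in all 8 KO libraries without YAP.

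The Xin genes encode actin-binding repeat proteins of the disc. Xirp2 (ENSMUSG00000027022, chr2:67446002-67526614, GRCm38) kept 0.351% of its WT mean in uninjected KO hearts, 6 to 21 reads per library, and 0.262% in KO/GFP hearts, 3 to 8 reads. In KO/YAP hearts it was at 0.789, 0.117, 0.972 and 0 CPM. The last of these libraries had 0 reads, which allows up to 0.172 CPM at 3 reads, for counting error only. All KO libraries were under 1 CPM and all WT libraries over 50 CPM. In WT/YAP hearts Xirp2 was at 93.8, 90.5, 81.6 and 56.0 CPM, each below the lowest WT/GFP value among 103, 99.0, 115 and 149 CPM, and the difference did not pass (log2 fold change -0.54, standard error 0.22, adjusted p = 0.70).

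Xirp1, the paralog, was at 255, 313, 269.8 and 346.8 CPM in replicates 1 to 4 of KO and 252, 254, 226 and 258 CPM in WT uninjected hearts. Values were 249, 181, 278 and 238 CPM in KO/GFP and 211, 218, 184 and 204 CPM in WT/GFP hearts. With YAP they were 215, 193, 208 and 236 CPM in KO and 220.3, 185, 180.1 and 148 CPM in WT hearts. The genotypes overlapped in uninjected (log2 fold change 0.25, standard error 0.11, adjusted p = 0.24) and in GFP hearts (log2 fold change 0.20, standard error 0.13, adjusted p = 0.35). Xirp1 shares its strand and part of its locus with Cx3cr1, a macrophage receptor gene at 0.468 to 17.2 CPM in these libraries, and reads in the shared part could belong to either.

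Among the 9 adherens junction genes none was called in the 3 main comparisons by limma, where 6.69%, 13.7% and 14.8% of all genes were called. At an unadjusted p under 0.05 there were 2 in uninjected hearts (Cdh13 and Afdn), 0 in KO/GFP against WT/GFP and 1 (Afdn) in KO/YAP against KO/GFP, where 22.5%, 27.4% and 29.6% of all genes were at that level. DESeq2 called Cdh13 in uninjected hearts, and edgeR called 0 of the 9 in the 3 comparisons, with 2, 0 and 0 at an unadjusted p under 0.05. Their medians of log2 fold change were 0.041, 0.025 and 0.16 in the 3 comparisons. Cdh2, N-cadherin, was at 186, 341, 416 and 421 CPM in KO and 329, 335, 284 and 317 CPM in WT uninjected hearts (log2 fold change 0.041, standard error 0.24, adjusted p = 0.94). The first KO heart was lowest of the 8 and the last 3 were highest, and without that first heart Cdh2 still did not pass (log2 fold change 0.31, adjusted p = 0.082). With GFP, Cdh2 was at 356, 253, 377 and 378 CPM in KO and 237, 285, 335 and 320.0 CPM in WT hearts, and in KO/YAP hearts at 341, 367, 287 and 404 CPM. KO/GFP replicate 2 lay inside the WT/GFP range and the other 3 above it (log2 fold change 0.21, standard error 0.15, adjusted p = 0.40). Between KO/YAP and KO/GFP hearts the ranges overlapped (log2 fold change 0.044, standard error 0.15, adjusted p = 0.88).

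Ctnnb1, β-catenin, which links cadherins to actin and also acts in Wnt signaling, varied widely within groups. It was at 389.1, 276, 347.2 and 561 CPM in KO and 483, 391.3, 411 and 423 CPM in WT uninjected hearts (log2 fold change -0.16, standard error 0.19, adjusted p = 0.68). In WT/GFP hearts it was at 556, 568, 254 and 333 CPM, in KO/GFP hearts at 434, 414.6, 264 and 397 CPM and in KO/YAP hearts at 487, 528, 305 and 344 CPM. The WT/GFP hearts alone covered the full range of the other two groups (log2 fold change -0.12, standard error 0.26, adjusted p = 0.81 for KO/GFP against WT/GFP, log2 fold change 0.13, standard error 0.26, adjusted p = 0.78 for KO/YAP against KO/GFP).

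Jup, plakoglobin, which serves adherens junctions and desmosomes alike, was at 211, 269, 274 and 248 CPM in KO and 200.3, 209, 236 and 240.0 CPM in WT uninjected hearts (log2 fold change 0.17, standard error 0.11, adjusted p = 0.43). In KO/GFP hearts it was at 231, 240.4, 234 and 226 CPM, all above the WT/GFP values of 219.6, 186, 205 and 210.2 CPM, but the difference did not pass (log2 fold change 0.18, standard error 0.091, adjusted p = 0.20). KO/YAP hearts gave 179.6, 204, 195 and 244 CPM, 3 of which were below every KO/GFP heart (log2 fold change -0.19, standard error 0.091, adjusted p = 0.18).

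Vcl, vinculin, which reinforces junctions under load, was at 57.2, 162, 147 and 195 CPM in KO and 165, 167, 174 and 248 CPM in WT uninjected hearts (log2 fold change -0.53, standard error 0.34, adjusted p = 0.42). KO replicate 1 was the lowest heart and WT replicate 4 the highest, and Vcl did not pass without KO replicate 1 either (log2 fold change -0.15, adjusted p = 0.60). With virus, Vcl was at 215, 139, 224 and 204 CPM in KO/GFP, 168, 195.8, 207 and 214.4 CPM in WT/GFP and 262, 248, 188 and 228 CPM in KO/YAP hearts. These groups overlapped (log2 fold change -0.025, standard error 0.14, adjusted p = 0.93 for KO/GFP against WT/GFP, log2 fold change 0.26, standard error 0.14, adjusted p = 0.22 for KO/YAP against KO/GFP). Its locus overlaps Ap3m1 on the other strand. The remaining members, Cdh13, Ctnna1, Ctnna3, Ctnnd1 and Afdn, had log2 fold changes of -0.69 (Afdn) to 0.26 (Ctnnd1) in uninjected hearts and of -0.20 (Afdn) to 0.057 (Ctnna3) in KO/GFP against WT/GFP hearts. For Afdn, a cadherin-nectin adaptor, every uninjected KO value was below every WT value, at 65.2% of the WT mean (log2 fold change -0.69, adjusted p = 0.17). Its lowest value was that of KO replicate 1, and without it the difference was smaller (log2 fold change -0.38, adjusted p = 0.075).

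In KO/GFP hearts 2 of the 5 desmosome genes, Dsg2 and Pkp2, rose, where 6.43% of all tested genes did. Dsp passed only without 1 library, and Pkp4 and Dsc2 had log2 fold changes of 0.16 and -0.024. The median of the 5 was 0.45, against -0.0092 over all genes. Dsg2, desmoglein 2, a desmosomal cadherin, was at 123, 73.0, 103 and 147 CPM in KO/GFP and 54.2, 69.7, 78.8 and 66.4 CPM in WT/GFP hearts. KO/GFP replicate 2 lay within the WT/GFP range and the other 3 above it, and the KO mean was 166% of the WT mean (log2 fold change 0.69, standard error 0.17, adjusted p = 0.013). Pkp2, plakophilin 2, was at 210.4, 139.7, 186 and 209 CPM in KO/GFP and 107, 118, 139.6 and 141 CPM in WT/GFP hearts. Again replicate 2 was inside the WT range, near its upper end, and the rest above it (log2 fold change 0.55, standard error 0.14, adjusted p = 0.017). Without KO/GFP replicate 2 both calls remained, for Dsg2 (log2 fold change 0.88, adjusted p = 0.00052) and for Pkp2 (log2 fold change 0.68, adjusted p = 0.0019). The Pkp2 call was lost without KO/GFP replicate 1 or 4 or WT/GFP replicate 1 or 2, with fold changes of 0.47 to 0.68 over all fits that left out 1 library. With only the 2 groups compared in the fit neither gene passed (adjusted p = 0.071 for Dsg2 and 0.057 for Pkp2).

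Dsp, desmoplakin, which ties desmosomes to intermediate filaments, was at 1139, 518, 1099 and 1110.5 CPM in KO/GFP and 556, 699.8, 710.0 and 758 CPM in WT/GFP hearts. KO/GFP replicate 2 was lower than every WT/GFP heart and the other 3 were higher than all of them (log2 fold change 0.45, standard error 0.22, adjusted p = 0.19). Without replicate 2 it passed as higher (log2 fold change 0.72, adjusted p = 0.0032). In uninjected hearts Dsp was at 519.6, 1237, 1316 and 1154 CPM in KO and 917, 934, 835 and 791 CPM in WT. Here too a single KO library, replicate 1, was below all WT hearts and the rest above (log2 fold change 0.20, standard error 0.27, adjusted p = 0.72, and without replicate 1 log2 fold change 0.51, adjusted p = 0.011). Dsg2 in uninjected hearts was at 82.3, 185, 179 and 151 CPM in KO and 113, 107, 96.6 and 109 CPM in WT, with the same exception (log2 fold change 0.42, standard error 0.23, adjusted p = 0.34, and without replicate 1 log2 fold change 0.68, adjusted p = 0.0059). These 2 libraries, KO uninjected replicate 1 and KO/GFP replicate 2, had the lowest balance of long to short genes in their tables, and Dsg2 and Dsp have 8268 and 9659 bp of exon. The part of that balance in the low values was not tested. Pkp2, with 5360 bp, was at 148, 159, 168 and 173 CPM in KO and 157, 169, 163 and 175 CPM in WT uninjected hearts, ranges that overlapped (log2 fold change -0.037, standard error 0.087, adjusted p = 0.84, 95% interval -0.23 to 0.16). Whether the Pkp2 difference itself differs between the cohorts was not tested.

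In KO/YAP hearts the means of Dsg2, Dsp, Pkp2 and Pkp4 lay between those of KO/GFP and WT/GFP hearts, and that of Dsc2 did not. Dsg2 was at 89.8, 92.0, 71.6 and 93.2 CPM (log2 fold change -0.32, standard error 0.17, adjusted p = 0.21), Dsp at 814, 913, 646 and 1035 CPM (log2 fold change -0.13, standard error 0.22, adjusted p = 0.72) and Pkp2 at 128, 120.4, 161 and 171 CPM (log2 fold change -0.35, standard error 0.14, adjusted p = 0.10) in KO/YAP hearts. Against KO/GFP 0 of the 5 were called by limma, edgeR or DESeq2, where these tools called 14.8%, 14.4% and 17.9% of all genes. At an unadjusted p under 0.05 there were 1 (Pkp2), 2 and 2, where 29.6% of all genes were at that level in limma. Without KO/GFP replicate 2 Dsg2 (log2 fold change -0.51, adjusted p = 0.018) and Pkp2 (log2 fold change -0.49, adjusted p = 0.016) passed as lower. In WT/YAP hearts Dsg2 was at 65.9, 69.2, 69.2 and 58.6 CPM, which overlapped WT/GFP (log2 fold change -0.024, adjusted p = 0.99).

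Of the 5 gap and tight junction genes 1 fell in uninjected KO hearts (3.46% of all genes did), and 1 fell with YAP in KO hearts (6.92% of all). In KO/GFP against WT/GFP 0 were called by limma, edgeR or DESeq2, where these tools called 13.7%, 13.0% and 16.4% of all genes. In each, 2 of the 5 had an unadjusted p under 0.05, as did 27.4% of all genes in limma. Gja1, connexin 43, was at 364.5, 451, 479 and 438 CPM in KO and 651, 710.0, 572 and 539.9 CPM in WT uninjected hearts. The groups did not overlap, and KO hearts had 70.1% of the WT mean (log2 fold change -0.51, standard error 0.12, adjusted p = 0.043). The call was lost when any WT library, KO replicate 2 or KO replicate 3 was left out, with fold changes between -0.57 and -0.43 over the 8 fits. It was also lost without the trend, with the replicate block and with Ddx3y, a Y-linked gene that follows sex, as a covariate (adjusted p-values of up to 0.123). With GFP, Gja1 was at 511, 522, 431 and 545 CPM in KO and 357, 417, 489.6 and 485 CPM in WT hearts, ranges that overlapped with the KO mean above the WT mean (log2 fold change 0.21, standard error 0.12, adjusted p = 0.31). The difference between the cohorts was not tested. In KO/YAP hearts it was at 354, 389.2, 452 and 466 CPM (log2 fold change -0.28, standard error 0.12, adjusted p = 0.15 against KO/GFP) and in WT/YAP hearts at 530.4, 552, 487 and 416 CPM.

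Gjc1, connexin 45, was called in KO/YAP against KO/GFP hearts, with 60.0, 52.9, 65.0 and 49.9 CPM against 66.2, 80.8, 77.6 and 60.8 CPM (log2 fold change -0.32, standard error 0.10, adjusted p = 0.042). The 2 groups overlapped, since KO/YAP replicate 3 exceeded KO/GFP replicate 4, and the call held in 6 of the 16 fits that left out 1 library, with values of -0.39 to -0.26. It was lost without KO/GFP replicate 1, 2 or 3, KO/YAP replicate 1, 2 or 4, WT/GFP replicate 2 or 4, or WT/YAP replicate 2 or 3, and also with quantile normalization, without the trend, with the replicate block and with only the 2 groups compared in the fit (adjusted p-values of up to 0.145). Gjc1 in WT/GFP hearts was at 62.3, 60.9, 56.5 and 56.8 CPM (log2 fold change 0.26, standard error 0.10, adjusted p = 0.10). It was at 56.7, 48.2, 61.3 and 64.0 CPM in KO and 58.0, 59.9, 54.3 and 58.8 CPM in WT uninjected hearts (log2 fold change -0.012, standard error 0.11, adjusted p = 0.96). Gja5, connexin 40 of the atria and conduction system, had 5.03 to 10.98 CPM in KO/GFP and 9.73 to 15.7 CPM in WT/GFP hearts (log2 fold change -0.64, adjusted p = 0.12). Tjp1, the scaffold ZO-1, was lower in all 4 uninjected KO hearts, at 76.4% of the WT mean, without passing (log2 fold change -0.43, adjusted p = 0.23). KO replicate 1 was the lowest of these, and without it the difference was smaller (log2 fold change -0.21, adjusted p = 0.075). Cxadr, a receptor at tight junctions, stayed within -0.14 and 0.12 on the log2 scale in the 3 comparisons.

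Of the 11 integrin and focal adhesion genes, 3 rose in KO/YAP against KO/GFP hearts, where 7.85% of all tested genes did. None was called by limma in either genotype comparison, where 2 had an unadjusted p under 0.05 in each (Itgb1bp2 and Itga7 uninjected, Tln1 and Ptk2 with GFP). Of all genes 6.69% and 13.7% were called in these comparisons, and 22.5% and 27.4% had an unadjusted p under 0.05. edgeR called 0 of them in either, with 2 at that level in each, and DESeq2 called Tln1 in KO/GFP against WT/GFP hearts. In KO/YAP against KO/GFP hearts the median of the 11 was 0.20, against 0.010 over all genes. Tln1, talin 1, which couples integrins to actin, was at 284, 273, 292 and 306 CPM in KO/YAP and 244, 229, 246.9 and 231 CPM in KO/GFP hearts. All KO/YAP hearts exceeded all KO/GFP hearts (log2 fold change 0.28, standard error 0.069, adjusted p = 0.013), and each of the 16 fits without 1 library kept the call, which was lost with only the 2 groups compared in the fit (adjusted p = 0.058). Tln1 in WT/GFP hearts was at 279, 287, 263 and 271 CPM, above all KO/GFP hearts but short of the threshold (log2 fold change -0.21, standard error 0.069, adjusted p = 0.053). WT/YAP hearts had 282, 243, 277 and 256 CPM, and the YAP effect differed between genotypes by 0.34 (standard error 0.10, adjusted p = 0.045), a call that 12 of 16 fits without 1 library lost, with values of 0.30 to 0.37: those without any KO/YAP library, KO/GFP replicate 1 or 4, WT/GFP replicate 1, 2 or 4, or WT/YAP replicate 2, 3 or 4. In uninjected hearts Tln1 was at 208, 304, 270.2 and 359 CPM in KO and 317, 310.0, 334 and 313 CPM in WT (log2 fold change -0.19, standard error 0.15, adjusted p = 0.54, and without KO replicate 1 log2 fold change -0.044, adjusted p = 0.82). Its locus overlaps Creb3 on the other strand.

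Ptk2, focal adhesion kinase, was at 71.2, 67.4, 71.7 and 66.9 CPM in KO/YAP and 52.0, 47.8, 66.3 and 47.5 CPM in KO/GFP hearts, without overlap (log2 fold change 0.38, standard error 0.11, adjusted p = 0.027). In WT/GFP hearts it was at 64.2, 66.5, 64.9 and 67.0 CPM, above 3 of the KO/GFP hearts, with replicate 3 of KO/GFP among the WT values (log2 fold change -0.31, standard error 0.11, adjusted p = 0.075). Uninjected values were 58.1, 69.2, 61.6 and 91.3 CPM in KO and 78.2, 75.2, 90.8 and 78.3 CPM in WT (log2 fold change -0.22, standard error 0.15, adjusted p = 0.44). Itga7, the laminin-binding integrin chain of muscle, was at 142, 125, 152 and 185 CPM in KO/YAP and 121, 102, 119.9 and 123 CPM in KO/GFP hearts (log2 fold change 0.36, standard error 0.10, adjusted p = 0.024), again with no overlap. In WT hearts it was at 106, 109, 117 and 121 CPM with GFP (log2 fold change 0.038, standard error 0.10, adjusted p = 0.85 for KO/GFP against WT/GFP) and 105, 102, 105 and 104 CPM with YAP. All KO/YAP hearts were above all hearts of the 3 other injected groups, at 145% of WT/YAP (log2 fold change 0.52, adjusted p = 0.13). In uninjected hearts Itga7 was at 185, 167, 184 and 166 CPM in KO, all above the WT values of 139, 154, 153 and 157 CPM (log2 fold change 0.22, standard error 0.086, adjusted p = 0.17). The Ptk2 call against KO/GFP was lost without KO/GFP replicate 1, 2 or 4 or KO/YAP replicate 1, 2 or 3 (fold changes 0.33 to 0.49 over all fits), and that of Itga7 without KO/GFP replicate 2 or KO/YAP replicate 3 or 4 (0.26 to 0.45). Both were also lost with only the 2 groups compared in the fit (adjusted p = 0.072 for Ptk2 and 0.104 for Itga7).

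Itgb1 was at 366, 544, 625 and 729.7 CPM in KO and 565, 588, 540.3 and 610.3 CPM in WT uninjected hearts (log2 fold change -0.068, standard error 0.19, adjusted p = 0.87). KO replicate 1 was the lowest, and without it the sign turned (log2 fold change 0.13, adjusted p = 0.47). With virus its values were 513, 537, 769 and 675 CPM in KO/GFP, 602, 659, 597 and 649 CPM in WT/GFP and 751, 805, 613 and 675 CPM in KO/YAP hearts. The groups overlapped (log2 fold change -0.026, standard error 0.13, adjusted p = 0.92 for KO/GFP against WT/GFP, log2 fold change 0.20, standard error 0.13, adjusted p = 0.30 for KO/YAP against KO/GFP). Tln2, the adhesion scaffolds Ilk, Parva and Pxn, the integrin partner Itgb1bp2 and the integrin chains Itga5 and Itga6 had log2 fold changes of -0.28 (Itga6) to 0.52 (Parva) uninjected, -0.19 (Itga6) to 0.21 (Parva) in KO/GFP against WT/GFP and -0.14 (Pxn) to 0.36 (Itga6) in KO/YAP against KO/GFP hearts. Beside these values stand the fibroblast markers, whose summed level was higher in every KO/YAP than in every KO/GFP heart.

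Among the regulators of actin at adhesions, Vasp, which promotes filament growth, changed in both injected comparisons of KO hearts. It was at 65.2, 75.3, 63.5 and 57.4 CPM in KO/GFP and 81.9, 79.6, 77.8 and 91.0 CPM in WT/GFP hearts, with no overlap and a KO mean of 79.1% of WT (log2 fold change -0.34, standard error 0.11, adjusted p = 0.046). In KO/YAP hearts it was at 88.2, 98.4, 77.8 and 75.8 CPM, all above KO/GFP (log2 fold change 0.37, standard error 0.11, adjusted p = 0.027), and in WT/YAP hearts at 74.1, 69.2, 79.9 and 89.4 CPM. The first call was narrow: it held in 5 of the 16 fits without 1 library, those without KO/GFP replicate 2, KO/YAP replicate 2 or 4 or WT/YAP replicate 2 or 4, and it was lost in edgeR, without the trend, with the replicate block, with the Ddx3y covariate and with only the 2 groups compared in the fit (adjusted p-values of up to 0.088), with fold changes of -0.41 to -0.28 without 1 library. The second was lost without KO/GFP replicate 1 or 4 or KO/YAP replicate 1 or 2 (0.30 to 0.44), with the replicate block and with only the 2 groups compared in the fit (adjusted p-values of up to 0.079). In uninjected hearts Vasp was at 64.9, 70.1, 54.997 and 61.7 CPM in KO and 68.8, 66.1, 83.9 and 80.4 CPM in WT (log2 fold change -0.24, standard error 0.12, adjusted p = 0.26). Zyx, zyxin, had 49.6 to 105 CPM in KO/GFP and 90.03 to 126 CPM in WT/GFP hearts (log2 fold change -0.50, adjusted p = 0.068). Enah, a relative of Vasp, did not pass in any comparison and was at 32.3 CPM in KO uninjected replicate 1, against 128 to 139.8 CPM in WT.

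Myzap, a disc protein that binds ZO-1, rose in KO hearts of both cohorts and was lower with YAP. It was at 438, 458, 486 and 386 CPM in KO and 297, 300.4, 287 and 309 CPM in WT uninjected hearts. All KO hearts lay above all WT hearts, with means of 442 ± 42.3 CPM and 298 ± 9.14 CPM (SD, n = 4), and the difference passed (log2 fold change 0.56, standard error 0.094, adjusted p = 0.011). In the injected cohort it was at 444, 310.4, 389.6 and 465 CPM in KO/GFP and 228, 251, 250.5 and 226.8 CPM in WT/GFP hearts, again without overlap, at 168% of the WT mean (log2 fold change 0.73, standard error 0.10, adjusted p = 0.00035). KO/YAP hearts had 244, 259, 249 and 275 CPM, all below every KO/GFP heart (log2 fold change -0.63, standard error 0.10, adjusted p = 0.00096). Their values overlapped those of WT/GFP, with a difference of 0.10 on the log2 scale (95% interval -0.12 to 0.32). In WT/YAP hearts Myzap was at 265, 261, 238 and 239 CPM (log2 fold change 0.068, adjusted p = 0.94 against WT/GFP), and the YAP effect differed between genotypes by -0.70 (standard error 0.15, adjusted p = 0.011). All 4 calls were kept in each fit that left out 1 library, and the uninjected call was lost with the replicate block (adjusted p = 0.072).

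Tmem65, a membrane protein found in mitochondria and at the disc, was called in the injected cohort. It was at 111, 115, 118 and 121 CPM in KO/GFP, all below the WT/GFP values of 129, 136, 151 and 144 CPM (log2 fold change -0.27, standard error 0.076, adjusted p = 0.027). KO/YAP hearts had 167, 154, 145 and 159 CPM, all above KO/GFP (log2 fold change 0.43, standard error 0.076, adjusted p = 0.0017), and WT/YAP hearts 139, 134, 135 and 118 CPM (log2 fold change -0.088, adjusted p = 0.89 against WT/GFP). The interaction was 0.51 (standard error 0.11, adjusted p = 0.010). Both YAP calls were kept in each fit without 1 library, whereas the KO/GFP call was lost without KO/GFP replicate 1 or WT/GFP replicate 3 or 4 (fold changes -0.31 to -0.23). It was also lost without the trend, with the replicate block and with only the 2 groups compared in the fit, with adjusted p-values of up to 0.092. Uninjected hearts had 132, 111, 131 and 116 CPM in KO and 127.02, 129, 118 and 121 CPM in WT, which overlapped (log2 fold change -0.019, standard error 0.091, adjusted p = 0.93, 95% interval -0.22 to 0.19). The ankyrins Ank2 and Ank3, which anchor channels and cytoskeleton at the membrane, were not called, with log2 fold changes of -0.28 and 0.06 uninjected and 0.14 and 0.35 in KO/GFP against WT/GFP hearts.

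**Figure D5:**
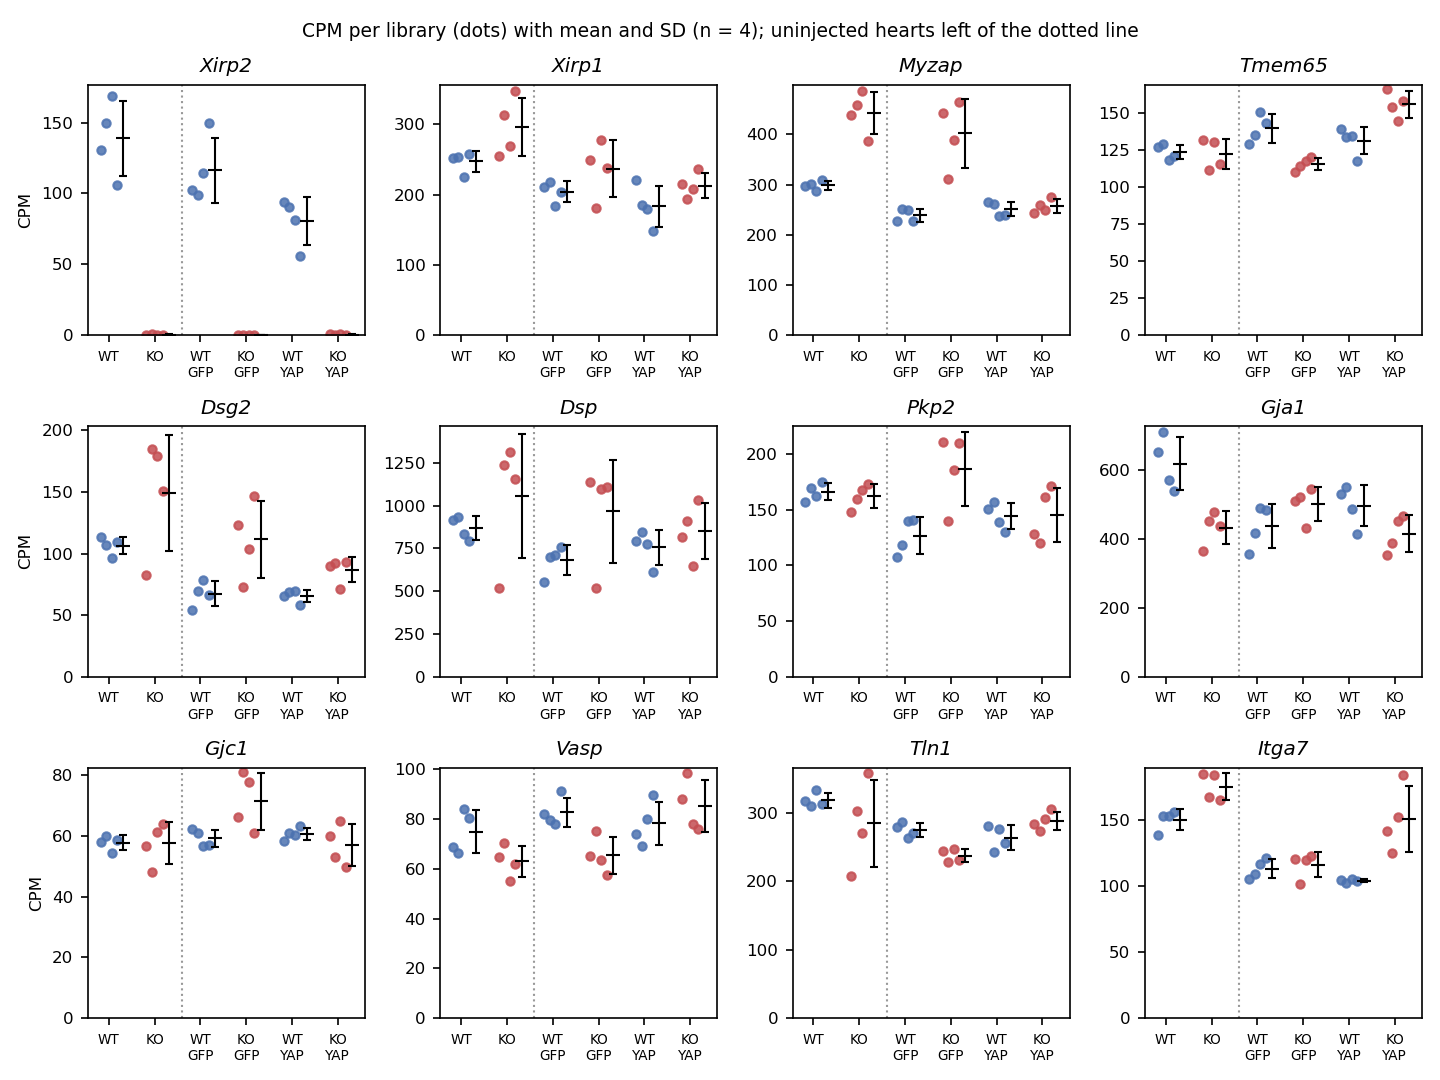
CPM of 12 genes in each library (dots, WT blue and KO red) with mean and SD (n = 4) beside them, uninjected hearts left of the dotted line and injected hearts right of it, axes starting at 0. Myzap is high in KO and KO/GFP hearts and at the WT level in KO/YAP hearts, and Dsp and Dsg2 show 1 low KO library in each cohort.

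Other genes of the same structures were counted from 2 further lists. Of 30 other cell junction genes 23 were tested, with 0 called in uninjected hearts by limma (3 at an unadjusted p under 0.05), 0 by edgeR and 2 (Arvcf and Des) by DESeq2. Of all genes limma called 6.69%, edgeR 6.13% and DESeq2 12.5%, and 22.5% had an unadjusted p under 0.05 in limma. Limma called 3 higher in KO/GFP against WT/GFP hearts, where 6.43% of all genes were. In KO/YAP against KO/GFP hearts it called 1 higher and 2 lower, against 7.85% and 6.92% of all genes. The smallest adjusted p-values in uninjected hearts belonged to Arvcf, a relative of p120 catenin (log2 fold change -0.41, adjusted p = 0.071), Des, desmin (log2 fold change 0.36, adjusted p = 0.086), and Nectin3 (log2 fold change -0.58, adjusted p = 0.18). In KO/GFP hearts Des (log2 fold change 0.35, adjusted p = 0.014) and Lmo7, an actin-associated junction protein (log2 fold change 0.40, adjusted p = 0.020), rose. Des fell with YAP in KO hearts (log2 fold change -0.40, adjusted p = 0.0067).

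All 35 other cell-matrix adhesion genes were tested. In uninjected hearts limma called 1 higher and 1 lower, where 6.69% of all genes were called, and DESeq2 called 6, where it called 12.5% of all genes. KO/GFP against WT/GFP hearts gave 6 higher and 8 lower, against 6.43% and 7.22% of all genes. KO/YAP against KO/GFP hearts gave 7 higher and 3 lower, against 7.85% and 6.92%. Itga1, a collagen-binding integrin chain, fell in KO hearts without virus (log2 fold change -0.96, adjusted p = 0.033) and with GFP (log2 fold change -0.85, adjusted p = 0.0010), and was higher in KO/YAP than in KO/GFP hearts (log2 fold change 0.83, adjusted p = 0.0010). Tns1, tensin 1, rose in KO hearts without virus (log2 fold change 0.75, adjusted p = 0.041) and with GFP (log2 fold change 0.81, adjusted p = 0.0029), and was lower with YAP (log2 fold change -0.60, adjusted p = 0.016). Itga9, another integrin chain, was called by DESeq2 but not by limma in uninjected hearts (log2 fold change -0.84, adjusted p = 0.054 in limma). It fell in KO/GFP hearts (log2 fold change -0.73, adjusted p = 0.012) and rose with YAP in KO hearts (log2 fold change 0.86, adjusted p = 0.0043). Flna, filamin A, fell in KO/GFP hearts (log2 fold change -0.57, adjusted p = 0.0063) and rose with YAP (log2 fold change 0.58, adjusted p = 0.0056). These differences stand beside the fibroblast, macrophage, endothelial and erythroid marker sums above. Smooth muscle and pericyte sums, given with the processing, also did not overlap between KO/GFP and WT/GFP hearts. The part of those cells in the differences was not tested.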

How the data were processed

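RNA from 24 mouse hearts was sequenced from strand-specific, poly A-selected libraries. The authors clipped adapters (Cutadapt 2.3), mapped the reads to GRCm38 (HISAT2 2.1.0), assembled transcripts (StringTie 1.3.4, with its prepDE script for gene counts) and computed CPM (edgeR 3.26.1). Whether counting used strand is not given in the sources used here. The deposited signal is CPM whose columns sum to between 942566 and 1134439, read here as CPM on scaled library sizes. Within a small tolerance, all values were whole multiples of the worth of 1 read, so reads could be recovered (15015038 to 31154155 per library). Symbols, positions and exon lengths come from GENCODE M21, which matched 15655 of 15667 and 15314 of 15327 identifiers.

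A gene was tested if 4 of 8 uninjected or 8 of 16 injected libraries exceeded 1 CPM. Tests used limma 3.58.1 (R 4.3.3) on log2(CPM + 1), with the prior variance following the mean level, and p-values were adjusted by Benjamini-Hochberg with a threshold of 0.05. Fold changes on this scale understate changes of low genes. The 16 injected libraries shared one model. The study's methods name Fisher's exact test, and limma was used here. Self-tests used simulated data. The labels do not say whether the hearts of a group came from separate litters, so p-values measure the spread between these hearts. The 39 genes, the other lists and the tests were chosen with earlier results of these data known. All 39 genes are accounted for: those called in a comparison, and Xirp1, Xirp2, Cdh2, Ctnnb1, Jup, Dsp, Pkp2, Gja1, Vcl and Itgb1, are given in each library of the main comparisons, the others by ranges, and from each other list those with the 3 smallest adjusted p-values in either genotype comparison, of which a gene is not reported here. Enah, Afdn, Tjp1, Cxadr, Gja5, Zyx, Ctnnd1, Parva and the ankyrins were singled out after their values were seen. Of the further marker lists, smooth muscle and pericyte markers (6) summed to 1253 to 1564 CPM in KO/GFP, 1714 to 1872 CPM in WT/GFP and 1846 to 2375 CPM in KO/YAP hearts, and erythroid markers (6 listed) to 1209.9 to 3104 CPM, 3385 to 8411 CPM and 1862 to 2056 CPM. Atrial and conduction markers (4 of 6 listed) summed to 219 to 429 CPM, 99.3 to 315 CPM and 40.4 to 176 CPM in these groups, epicardial (4 of 5) to 10.2 to 22.8 CPM, 13.1 to 24.7 CPM and 14.9 to 19.3 CPM, Schwann and neuronal (3 of 5) to 5.95 to 9.81 CPM, 5.91 to 10.5 CPM and 4.56 to 10.7 CPM, and skeletal muscle (2 of 6, and none of the defining Myh3, Myh4, Myog and Tnnt3) to 2406 to 2772 CPM, 1833 to 2442 CPM and 1777 to 1826 CPM. In uninjected hearts epicardial markers (2 of 5 listed) summed to 14.4 to 21.8 CPM in KO, all above the 8.91 to 11.8 CPM of WT hearts. The sums of the other 5 lists overlapped there between KO and WT: 1255 to 2036 CPM and 1473 to 1949 CPM for smooth muscle and pericyte, 2272 to 3808 CPM and 2921 to 4284 CPM for erythroid, 137 to 324 CPM and 153 to 192 CPM for atrial and conduction, 5.14 to 6.94 CPM and 6.84 to 8.83 CPM for Schwann and neuronal (1 of 5 listed), and 2314 to 3566 CPM and 2047 to 2414 CPM for skeletal muscle markers.

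Alternatives were a pseudocount of 0.1, no filter, a minimum of 5 CPM, median-ratio scaling, quantile normalization, no trend, edgeR 4.0.16 and DESeq2 1.42.0 on recovered reads, a replicate block, a Ddx3y covariate, only the 2 groups compared, and leaving out each library. Figures were drawn with matplotlib 3.10.9.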

Additional observations from a re-analysis of the deposited data

Results flagged for a closer look

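Single libraries stood far from the other 3 of their group for some genes, where the gap to the nearest value was more than 0.829 of the group's range (Dixon's criterion for 4 values). This happened in 15 of the 234 groups of 4 values, where about 11.7 would be reached by chance, 1 in 20. Xirp1 was at 226 CPM in WT uninjected replicate 3, below the 252 to 258 CPM of the other hearts of its group. Ctnna1 was at 683 CPM in WT/YAP replicate 4, below the 772 to 786 CPM of the other hearts of its group. Ctnnb1 was at 303 CPM in WT/YAP replicate 2, below the 497 to 523 CPM of the other hearts of its group. Ctnnd1 was at 56.8 CPM in WT uninjected replicate 4, below the 195.9 to 201 CPM of the other hearts of its group. Vcl was at 248 CPM in WT uninjected replicate 4, above the 165 to 174 CPM of the other hearts of its group. Dsp was at 518 CPM in KO/GFP replicate 2, below the 1099 to 1139 CPM of the other hearts of its group. Dsg2 was at 71.6 CPM in KO/YAP replicate 3, below the 89.8 to 93.2 CPM of the other hearts of its group. Dsc2 was at 27.3 CPM in KO uninjected replicate 1, below the 52.9 to 56.8 CPM of the other hearts of its group.

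Dsc2 was at 33.4 CPM in WT/GFP replicate 1, below the 45.7 to 47.7 CPM of the other hearts of its group. Tjp1 was at 85.5 CPM in KO uninjected replicate 1, below the 151 to 159.9 CPM of the other hearts of its group. Parva was at 126 CPM in KO uninjected replicate 4, above the 92.1 to 95.7 CPM of the other hearts of its group. Parva was at 106 CPM in KO/GFP replicate 3, above the 86.6 to 89.6 CPM of the other hearts of its group. Pxn was at 48.2 CPM in KO uninjected replicate 1, below the 78.7 to 84.1 CPM of the other hearts of its group. Itga7 was at 102 CPM in KO/GFP replicate 2, below the 119.9 to 123 CPM of the other hearts of its group. Enah was at 66.6 CPM in WT/YAP replicate 1, below the 125 to 128 CPM of the other hearts of its group.

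The effect of YAP S127A differed between KO and WT hearts for 3 genes by the interaction term of limma. The difference on the log2 scale was 0.34 for Tln1 (0.28 in KO and -0.061 in WT hearts), -0.70 for Myzap (-0.63 and 0.068) and 0.51 for Tmem65 (0.43 and -0.088). The calls of Myzap and Tmem65 were kept in each fit without 1 library. That of Tln1 was lost in 12 of these 16 fits, and in edgeR, without the trend, with the replicate block and with the Ddx3y covariate (adjusted p-values of up to 0.085).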

How the results depend on the processing

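Over the alternatives that kept all libraries, 198 values of called genes stayed called in the same direction and 27 lost the call, and none reversed. The 198 include those of Xirp2, the deleted gene, kept in 10 of 10 settings uninjected and 11 of 11 in each injected comparison that called it. All 27 losses were in other genes. Of the values that were not called, 274 kept their sign and 4 turned it. Counts of called genes moved in these cases, and the cause was not tested. In KO against WT uninjected hearts, the 1044 genes (6.69% of those tested) became 1927 (12.4%) with Ddx3y as a covariate, 1955 (12.5%) in DESeq2 and 692 (5.80%) with a minimum of 5 CPM, which also tests fewer genes. With only the 2 groups compared in the fit, which leaves fewer samples for the spread, KO/GFP against WT/GFP gave 930 genes and 2 of the 39 in place of 1993 and 6, KO/YAP against KO/GFP gave 1208 and 2 in place of 2156 and 7, and KO/YAP against WT/YAP gave 15 genes in place of 6. DESeq2 gave 11 genes for WT/YAP against WT/GFP in place of 0, 24 for KO/YAP against WT/GFP in place of 3, and 71 for KO/YAP against WT/YAP, with 2 of the 39 in place of 1.

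With the replicate number as a block, the uninjected comparison gave 2.47% of tested genes and 1 of the 39 (Xirp2), and the difference of the YAP effects gave 707 genes in place of 1104. Of the 39, the block gave 4 in KO/GFP against WT/GFP, 5 in KO/YAP against KO/GFP and 3 in the interaction, where 11.9%, 12.6% and 4.84% of all genes were called. The labels do not say whether the numbers pair the hearts. Deviations of same-numbered libraries correlated between -0.19 and 0.098 in the 4 uninjected pairs, and 1 of 24 injected pairs was over 0.1. Only 1 of 8 uninjected and 3 of 16 injected libraries correlated best with their own number. With 4 hearts per group, these correlations cannot settle whether hearts were paired.

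With each library left out in turn, the genes called in KO against WT uninjected hearts ranged from 2.43% to 13.5% of those tested, and each of the 8 libraries moved the number more than 1.5 times. In the injected hearts they ranged from 1262 to 2756 (KO/GFP against WT/GFP), 1480 to 2500 (KO/YAP against KO/GFP), 0 to 1 (WT/YAP against WT/GFP), 1 to 4 (KO/YAP against WT/GFP), 2 to 15 (KO/YAP against WT/YAP) and 631 to 1474 (difference of YAP effects). Of the 39, the called genes ranged from 2 to 5 uninjected and, in the order of the injected comparisons, from 3 to 7, 4 to 8, 0 to 0, 1 to 1, 1 to 2 and 2 to 5. Each group held 4 libraries, and the 38 genes other than Xirp2 had at least 86 reads in every library.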

Other observations

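Ctnnd1, p120 catenin, and Parva, an actin-binding partner of Ilk, varied widely in some groups and little in others. Ctnnd1 was at 195.9, 196.5, 201 and 56.8 CPM in WT and 123, 205, 176 and 205 CPM in KO uninjected hearts. In WT/GFP hearts it was at 132, 68.8, 154 and 159 CPM, in KO/GFP hearts at 58.5, 118, 163 and 159 CPM, in WT/YAP hearts at 165, 179, 158 and 152 CPM and in KO/YAP hearts at 83.8, 182, 148 and 181 CPM. Parva was at 42.1, 109.9, 45.4 and 117 CPM in WT and 95.7, 95.6, 92.1 and 126 CPM in KO uninjected hearts. In WT/GFP hearts it was at 93.1, 41.7, 90.7 and 113 CPM, in KO/GFP hearts at 89.6, 87.2, 106 and 86.6 CPM, in WT/YAP hearts at 117, 107, 124 and 111 CPM and in KO/YAP hearts at 59.3, 91.1, 103 and 122 CPM. The lowest heart was the same for both genes in WT/GFP (replicate 2) and KO/YAP (replicate 1), and a different one in the 4 other groups. Neither gene passed the test in any comparison, by limma, edgeR or DESeq2.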
